A study of Rattus norvegicus with 21 samples.

Results

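Early response transcription factors are nuclear proteins whose genes are switched on within minutes to hours of injury, growth factors or nerve activity, mostly without the need for new protein. The 8 genes described here were Atf3, Junb, Fosl2, Egr2, Egr3, Klf4, Klf6 and Myc, taken as every probe whose annotated symbol was one of them. These were 8 of the 4153 genes named on the array, each with 1 of the 5376 probes in the table.

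Atf3, Junb and Fosl2 are basic leucine zipper proteins that pair with each other or with relatives to bind AP-1 or CRE-like sites. Egr2, Egr3, Klf4 and Klf6 are zinc finger proteins that bind GC-rich DNA, and Myc is a helix-loop-helix leucine zipper protein that binds E-boxes with its partner Max. In the nervous system Atf3 is known as a marker of neurons with cut axons, and the AP-1 and EGR genes are known for their quick induction by stimulation.

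The study hybridised rat spinal cord RNA to 21 2-colour arrays, 3 for each of 7 groups. Cord cultures were kept for 4 hr with CKIN, MP, acetaminophen (Acet), indomethacin (Indo), NS398 or PBS vehicle (Injured 4 hr), and freshly dissected cord formed the Uninjured group. The labels do not spell out CKIN and MP, and strain, age, dose and the number of animals were not stated in the labels. Acetaminophen is an analgesic, indomethacin blocks both cyclooxygenases, and NS398 prefers cyclooxygenase 2. Each sample was hybridised beside pooled RNA of vehicle-treated 4 hr cultures, with ethanol as vehicle for Indo, DMSO for NS398 and PBS for all other groups. No intact cord left in an animal after injury was among the samples, so the Injured 4 hr group stands for cord cut out and kept in culture.

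The values below are log2 ratios of the sample over its pool, with the median probe of each array set to 0. That the sample is the numerator was read from the order of the titles, which makes the direction likely but not stated. Each array gave a value for 3092 to 4916 probes. Precision is limited by the number of arrays. Before centring, array medians lay between -4.12 and -3.09 in Uninjured, between -2.26 and -2.12 in Injured 4 hr and between -1.62 and 0.70 in the drug groups. In Injured 4 hr both channels held RNA of PBS cultures, yet Atf3 and Junb lay between 0.73 and 0.91 above the median probe there. A total of 10 arrays, those of CKIN and Indo, MP replicates 1 and 3, Acet replicate 1 and NS398 replicate 1, lacked more than 1100 of the 5376 spots and are called sparse. Atf3, Junb and Klf6 were measured on all 21 arrays, Egr2 on 20, Myc on 19, Fosl2 and Egr3 on 18 each, and Klf4 on 15, with no value on any CKIN or Indo array. Bulk RNA cannot tell fewer cells of a type from less RNA per cell.

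In the RefSeq annotation of the rat build GRCr8, Atf3 (probe 5H06) spans chr13:105274103-105331653, Junb (52A06) chr19:40081126-40082910 and Fosl2 (52G04) chr6:30017952-30039269. Egr2 (5D01) spans chr20:21050149-21055201, Egr3 (46G01) chr15:51560482-51565778, Klf4 (51C04) chr5:75074107-75079182, Klf6 (5G12) chr17:69449483-69458478 and Myc (47A08) chr7:95483105-95488031. Promoters of 5 of the 8 genes (Junb, Fosl2, Egr2, Klf4 and Klf6) were matched in RefSeq sequences of that build, and the 250 bases before each start were searched on both strands. Those of Junb, the member called in CKIN, and Klf6, the member with overlapping centred ratios in fresh and cultured cord, are shown. The Egr2 stretch that holds a pair of sites is added. Capitals mark the CRE core TGACG on either strand, a TATA box (TATAAA) or a CArG box, the site of serum response factor.
Junb, chr19:40080876-40081125, plus strand, directly before the gene: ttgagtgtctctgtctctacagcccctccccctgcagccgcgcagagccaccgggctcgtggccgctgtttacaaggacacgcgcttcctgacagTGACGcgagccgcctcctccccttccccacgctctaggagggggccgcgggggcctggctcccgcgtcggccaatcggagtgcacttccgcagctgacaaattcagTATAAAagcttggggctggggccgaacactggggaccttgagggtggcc
Klf6, chr17:69458479-69458728, minus strand, directly before the gene: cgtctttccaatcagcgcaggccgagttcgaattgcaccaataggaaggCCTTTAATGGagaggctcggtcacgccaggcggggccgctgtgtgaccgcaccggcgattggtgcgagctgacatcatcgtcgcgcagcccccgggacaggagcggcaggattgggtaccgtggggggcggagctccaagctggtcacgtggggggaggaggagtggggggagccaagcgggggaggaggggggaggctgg
Egr2, chr20:21054503-21054524, minus strand, before a start that lies within the annotated gene: CCATATATGGgcagcgaCGTCA

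Counted from the start, the CRE core of Junb began at position -155 and its TATA box at -49. The CArG box of Egr2 began at -83 and its CRE core, read on the opposite strand, at -66. The CArG box of Klf6 began at -201, and an E-box (CACGTG) lay at -56. Of all 33469 promoters of this length, 18.2% held the CRE core, 12.9% the TATA box, 1.5% a CArG box and 5.59% the E-box. The AP-1 site (TGANTCA, held by 6.34% of promoters) and the full CRE (TGACGTCA, 1.59%) were in none of the 5 windows. These matches are descriptions of letters and no measurement of binding.

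Setting Injured 4 hr against Uninjured compares cultured with fresh cord. Atf3 rose, and the other members read higher by between 0.12 and 2.30 on the log2 scale without passing the test. Of the 8 members 1 was called, where 14.3% of all 4822 probes tested were called in either direction and 0.809% were called higher. In 7 of 8 members every Injured 4 hr array lay above every Uninjured array in centred ratios, which held for 21.1% of all probes. By percentile on the array, Fosl2, Egr2 and Egr3 overlapped between these groups, while Atf3, Junb, Klf4, Klf6 and Myc were apart. Fosl2 ranked between 2.56 and 26.3 in Injured 4 hr and between 5.22 and 6.79 in Uninjured. For Egr3 these ranges were 13.28 to 31.98 and 0.0209 to 27.74, and for Egr2 16.999 to 66.84 and 9.44 to 18.48. The median change was 0.94 over the members and -0.04 over all probes. The members were chosen with earlier results of these data known, so these contrasts with all probes are descriptions and no test of the set. The p-values are from limma with Benjamini-Hochberg adjustment over all probes of a comparison and measure only the spread between these samples, which may be technical.

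**Figure D1:**
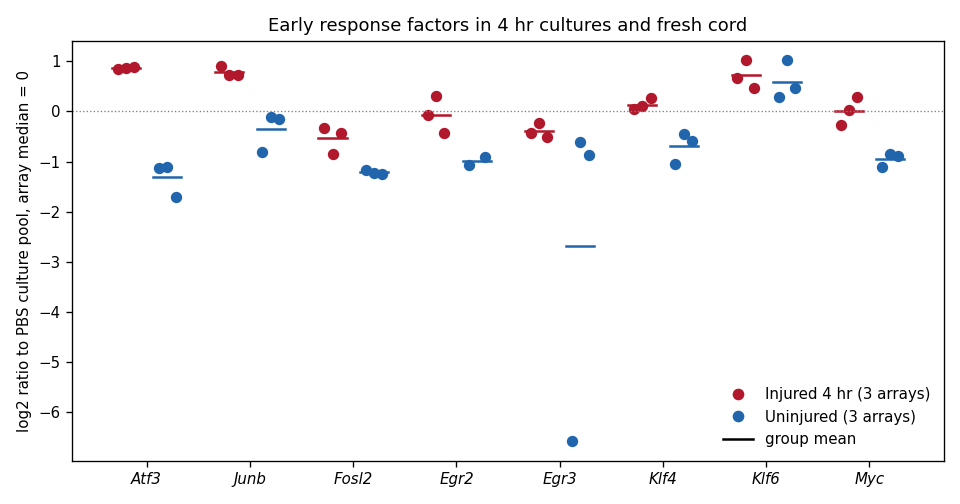
Centred log2 ratios (vertical axis) of the 8 members on each of the 3 Injured 4 hr arrays (red) and the 3 Uninjured arrays (blue, 2 for Egr2), with group means as horizontal lines. The groups are apart for every member but Klf6, and 1 Uninjured value of Egr3 lies at -6.59.

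Atf3, a stress-induced factor that often represses its targets, read 0.84, 0.86 and 0.89 in Injured 4 hr, against -1.12, -1.11 and -1.70 in Uninjured. All cultured samples lay above all fresh ones, with little spread in the cultured group. The change was 2.17 ± 0.38 (SE, n = 3 per group; limma adjusted p = 0.000682), a 4.51-fold difference. On each array Atf3 ranked between percentiles 79.6 and 81.6 of measured probes in Injured 4 hr and between 1.54 and 8.07 in Uninjured. The call held in all 7 other settings and with any 1 array left out, where the change ran between 1.98 and 2.27.

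Junb, an AP-1 subunit, read 0.91, 0.73 and 0.74 in Injured 4 hr and -0.81, -0.11 and -0.16 in Uninjured. The groups did not overlap, and the change of 1.15 ± 0.40 missed the threshold (adjusted p = 0.0573). In ratios corrected for their trend with the mean Injured 4 hr ratio and for source plate it was 1.96 (adjusted p = 0.000213). That correction draws on an arm of the comparison and sets Injured 4 hr near 0 by construction. Fosl2, another AP-1 subunit of the Fos family, read -0.32, -0.84 and -0.43 in Injured 4 hr and -1.17, -1.24 and -1.25 in Uninjured. Its difference was 0.69 ± 0.61 (adjusted p = 0.487), and it turned to -0.0045 under scale normalization. The fitted error of Fosl2 exceeds its spread in these groups because the model shares 1 spread per probe over all groups, and CKIN replicates of Fosl2 lay at -2.73 and 0.68. With only these groups in the fit, Junb, Fosl2, Egr2, Klf4 and Myc passed beside Atf3.

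Egr2, which in Schwann cells drives myelination, read -0.07, 0.30 and -0.43 in Injured 4 hr and -1.08 and -0.90 on the measured Uninjured arrays. The difference was 0.92 ± 0.44 (n = 3 and 2; adjusted p = 0.171). Egr3, a close relative induced by nerve activity, read -0.43, -0.23 and -0.50 in Injured 4 hr and -6.59, -0.61 and -0.86 in Uninjured. The value of -6.59 in Uninjured replicate 1 was the lowest measured on that array, and the difference was 2.30 ± 0.95 (adjusted p = 0.116). Without that array the difference was 0.35 (adjusted p = 0.621), and without Uninjured replicate 2 or 3 it was 3.34 or 3.21 and passed.

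Klf4, a factor of epithelial and vascular cells and of pluripotency, read 0.05, 0.10 and 0.26 in Injured 4 hr and -1.06, -0.45 and -0.59 in Uninjured. It differed by 0.84 ± 0.45 (adjusted p = 0.231). Klf6, a widely expressed relative, read 0.67, 1.03 and 0.46 in Injured 4 hr and 0.30, 1.03 and 0.46 in Uninjured, so that these ratios overlapped. By percentile on the array the groups were apart, between 71.8 and 84.2 in Injured 4 hr and between 56.3 and 67.7 in Uninjured. The Klf6 difference was 0.12 ± 0.42 with a 95% interval between -0.74 and 0.99 (adjusted p = 0.861). It turned to -0.0312 without Injured 4 hr replicate 2 and to -0.0271 without Uninjured replicate 1. Without centring it was 1.65 and passed (adjusted p = 0.0219), where the median of all probes was 1.47. Myc read -0.28, 0.03 and 0.30 in Injured 4 hr and -1.11, -0.85 and -0.89 in Uninjured, a difference of 0.97 ± 0.43 (adjusted p = 0.144). Cultured and fresh samples did not overlap for Myc.

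Markers of cell types moved in the same comparison, and their part in the members' values was not tested. Of 11 neuron probes 7 were called lower, of 9 astrocyte probes 6 and of 8 oligodendrocyte probes 1, where 651 of all 4822 probes were. None of 8 microglia and macrophage, 5 endothelium, 7 meninges and fibroblast and 4 blood and granulocyte probes was called. The mean of the 9 neuron probes measured on every array lay between 1.58 and 1.65 in Injured 4 hr and between 3.64 and 4.04 in Uninjured. The 3 microglia and macrophage probes measured on every array averaged between 0.37 and 0.60 in Injured 4 hr and between 0.43 and 0.91 in Uninjured. For 6 oligodendrocyte probes these ranges were 1.68 to 1.89 and 2.845 to 3.08. For 2 meninges and fibroblast probes they were 1.13 to 1.58 and 2.13 to 2.14. The mean of the Gapdh spots, a glycolytic gene of all cells, also read lower, between 2.15 and 2.17 in Injured 4 hr and between 3.66 and 4.03 in Uninjured, and without centring it lay between -0.11 and 0.02 in Injured 4 hr and between -0.10 and 0.54 in Uninjured. Calls over all probes numbered 690, against 20 under quantile and 33 under scale normalization, so the marker calls are not shown to be specific to a cell type. Ratios give no level, so no marker can be read as at 0.

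Among 28 probes of other early response genes, 4 rose and 1 fell, with a median change of 0.34. The mRNA-destabilising Zfp36 rose by 2.39 ± 0.54, the NF-kappaB inhibitor Nfkbia by 1.88 ± 0.47, the MAP kinase phosphatase Dusp1 by 1.60 ± 0.36 and the cytokine brake Socs3 by 1.27 ± 0.35, while the kinase Sgk1 changed by -1.90 ± 0.30. Among 13 probes of AP-1 and CREB/ATF partners, Cebpb rose by 1.62 ± 0.44 and Atf2 changed by -1.09 ± 0.36 on probe 7E11. The other Atf2 probe, 52G09, was not called. Of 10 probes of other EGR, KLF and SP factors, Klf15 was called at -1.08 ± 0.34, and Egr1 differed by 1.20 ± 0.43 (adjusted p = 0.0657). None of 3 MYC network probes was called. Of 12 probes of upstream kinases and factors 2 fell, Map2k1 at -1.67 ± 0.51 and Mapk10 at -1.20 ± 0.39. Of 31 probes of reported targets of these factors 1 rose, the haem oxygenase Hmox1 at 2.06 ± 0.65, and 3 fell. These were the axon growth genes Stmn2 at -2.81 ± 0.36 and Gap43 at -1.46 ± 0.38 and the cell cycle kinase Cdk4 at -1.20 ± 0.38. The Stmn2 probe is also counted among the neuron markers above.

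Treatment with CKIN, MP or Acet was set against Injured 4 hr, whose arrays also carried pooled RNA of PBS cultures. That this was the same pool on all these arrays was assumed, since the labels do not say so, and the drug-minus-Injured values rest on it. Junb was the member called in CKIN, and no member was called in MP or Acet. The 3 comparisons share the Injured 4 hr arrays and are given side by side.

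**Figure D2:**
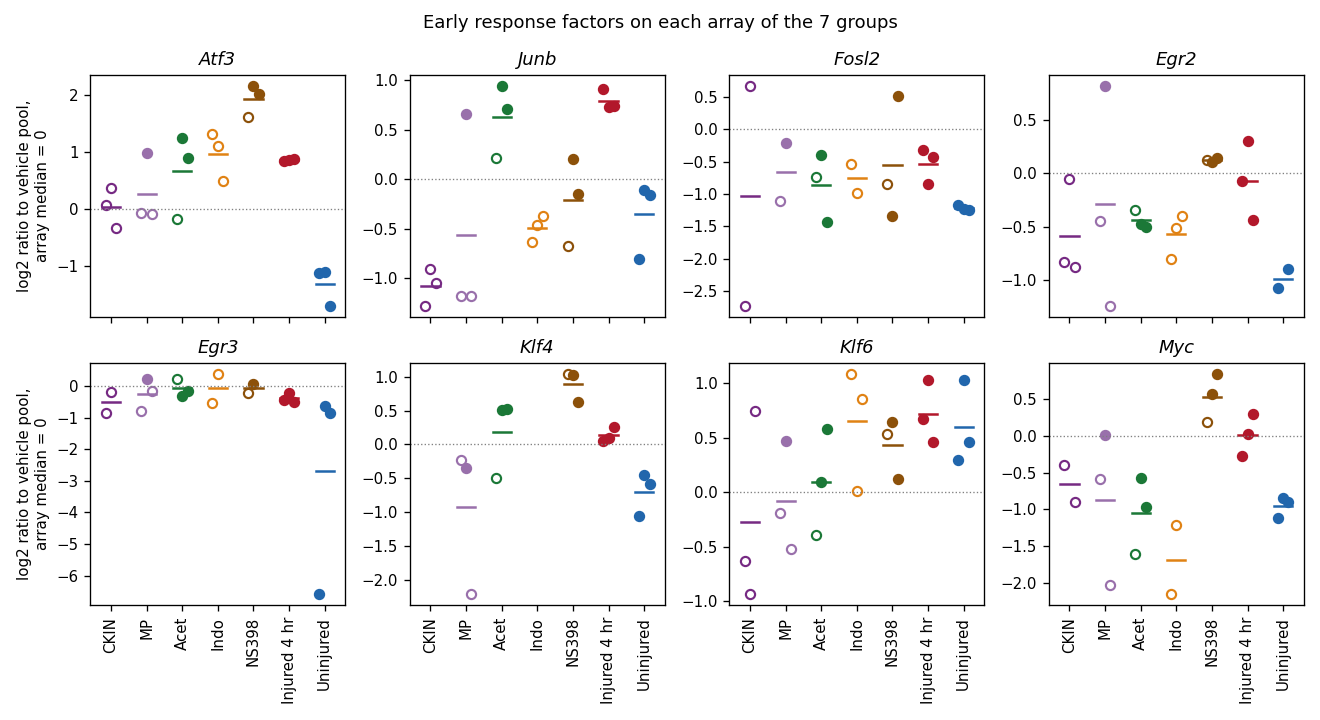
Centred log2 ratios (vertical axis, scale set for each gene) of the 8 members on each array of the 7 groups, with group means as horizontal lines and sparse arrays as open circles. Atf3 lies highest in NS398 and lowest in Uninjured, Junb has its lowest group mean in CKIN, and Klf4 has no value in CKIN or Indo.

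In CKIN, Junb read -1.28, -0.91 and -1.05, against 0.91, 0.73 and 0.74 in Injured 4 hr. The difference was -1.87 ± 0.40 (adjusted p = 0.00599), a 3.66-fold lower ratio with all CKIN arrays below all Injured 4 hr arrays. Of 7 members tested 1 was called, where 20% of 3736 probes were called, 18.5% lower. Members with all arrays lower were Atf3, Junb and Myc, 42.9% of those tested against 38.5% of all probes. Every CKIN array was sparse and no Injured 4 hr array was. With sparse arrays as a term the Junb difference was -0.82 (adjusted p = 0.414), in corrected ratios -0.75 (adjusted p = 0.209), and without centring 0.05, where the median of all probes was 1.54. Against the PBS pool itself Junb stood at -1.08 (adjusted p = 0.0122).

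Atf3 in CKIN read 0.08, 0.37 and -0.33, below the 0.84 to 0.89 of Injured 4 hr and at -0.82 ± 0.38 from it (adjusted p = 0.133). It turned to 0.11 with sparse arrays as a term and to 1.10 without centring, and against the PBS pool it averaged 0.04 (adjusted p = 0.953). Klf6 in CKIN read -0.63, -0.94 and 0.75, which overlapped with Injured 4 hr, at a difference of -0.995 ± 0.42 (adjusted p = 0.0958) that turned to 0.93 without centring. It passed without CKIN replicate 3 (-1.51, adjusted p = 0.0256) and under scale normalization (-1.25, adjusted p = 0.0329). Myc read -0.40 and -0.90 on the measured CKIN arrays and differed by -0.67 ± 0.49 (adjusted p = 0.357). Fosl2, Egr2 and Egr3 overlapped with Injured 4 hr.

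Among related genes in CKIN, 3 of 11 bZIP partner probes were lower, Cebpb at -2.75 ± 0.49 and both Atf4 probes at -1.83 ± 0.46 and -1.48 ± 0.45. Of 8 EGR, KLF and SP probes 3 were lower, the EGR corepressor Nab1 at -2.04 ± 0.49, Klf9 at -1.93 ± 0.37 and Egr1 at -1.34 ± 0.43. Of 22 other early response probes 6 were lower, among them the kinase Sik1 at -1.91 ± 0.64, the antiproliferative Btg1 at -1.79 ± 0.47 and Nfkbia at -1.73 ± 0.47. Of 27 target probes 9 were lower, among them Hmox1 at -2.53 ± 0.57 and the protease inhibitor Timp1 at -2.04 ± 0.46. The median change over all probes was -0.38. Of marker probes, 5 of 8 of oligodendrocytes, 4 of 9 of astrocytes and 2 of 6 of microglia and macrophages were lower as well. So were 1 of 5 of meninges and fibroblasts and 1 of 11 of neurons, and the part of these markers was not tested.

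In MP, Junb read -1.18, 0.66 and -1.18, so that replicate 2, the array that was not sparse, stood apart. All MP arrays lay below the 0.73 to 0.91 of Injured 4 hr, and the difference was -1.36 ± 0.40 (adjusted p = 0.0733). Without the sparse arrays MP was left with replicate 2 alone, at -0.13 from Injured 4 hr, and without MP replicate 2 it was -1.97 (adjusted p = 0.00198). Replicate 2 was also the highest MP array for Atf3 at -0.07, 0.98 and -0.09, Egr2 at -0.45, 0.82 and -1.24 and Klf6 at -0.19, 0.47 and -0.52. Klf4 read -0.23, -0.34 and -2.22 in MP and differed from Injured 4 hr by -1.07 ± 0.45 (adjusted p = 0.225). Without MP replicate 3 that difference was -0.42 (adjusted p = 0.707), and against the PBS pool itself Klf4 averaged -0.93 in MP (adjusted p = 0.0331). Myc read -0.59, 0.01 and -2.03 in MP and differed from Injured 4 hr by -0.89 ± 0.43 (adjusted p = 0.293), and it also passed against the PBS pool. Without centring Junb and Klf4 read 0.62 and 0.92 higher in MP than in Injured 4 hr, where the median of all probes was 1.66. No member of 8 was called by limma, where 2.05% of 4391 probes were, and 2 had an unadjusted p under 0.05. Members with all arrays lower were Junb and Klf4, 25.0% against 20.4% of all probes.

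In Acet, Junb read 0.22, 0.94 and 0.71 and overlapped with Injured 4 hr at a difference of -0.17, with a 95% interval between -0.999 and 0.67. Myc read -1.61, -0.58 and -0.97, all below the -0.28 to 0.30 of Injured 4 hr, and differed by -1.07 ± 0.43 (adjusted p = 0.258), which turned to 0.86 without centring, where the median of all probes was 1.64. Against the PBS pool itself Myc averaged -1.05 in Acet (adjusted p = 0.0143). Myc was the member with all arrays lower, 12.5% of 8 against 20.3% of all probes. No member was called by limma, where 1.31% of 4734 probes were, and 1 had an unadjusted p under 0.05. Of the related lists, the MEK kinase gene Map2k2 was lower in MP at -1.79 ± 0.43. It was also called lower in CKIN at -2.33 ± 0.43 and in Indo, against the ethanol pool, at -1.41 ± 0.30. In Acet Map2k2 averaged -0.89, against 0.55 in Injured 4 hr, and was not called. Timp1 and Plau were lower in Acet at -2.18 ± 0.46 and -1.45 ± 0.35. In Acet 2 of 7 meninges and fibroblast marker probes were lower as well, whose part was not tested, and no other marker probe was called in Acet or MP.

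The PBS-matched drugs were also compared directly, in 3 pairs with adjustment within each pair. Junb in CKIN lay below Acet on every array, as 13.4% of all probes did, by -1.70 ± 0.40 (adjusted p = 0.0648), where 0.16% of 3750 probes were called. It passed at -1.91 without Acet replicate 1, a sparse array, and stood at -1.002 (adjusted p = 0.205) with sparse arrays as a term. In MP, Junb and Klf4 differed from Acet by -1.19 ± 0.40 (adjusted p = 0.54) and -1.11 ± 0.45 (adjusted p = 0.69), where 0.0228% of 4379 probes were called, and Junb passed at -1.81 without MP replicate 2. Without MP replicate 3 the Klf4 difference was -0.46. Between CKIN and MP the 7 members tested lay between -0.51 and 0.22 with no unadjusted p under 0.05, and 0% of 3633 probes were called, with 552 at an unadjusted p under 0.05. The intervals remained wide, as the one for Junb between -1.34 and 0.32 shows.

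**Figure D3:**
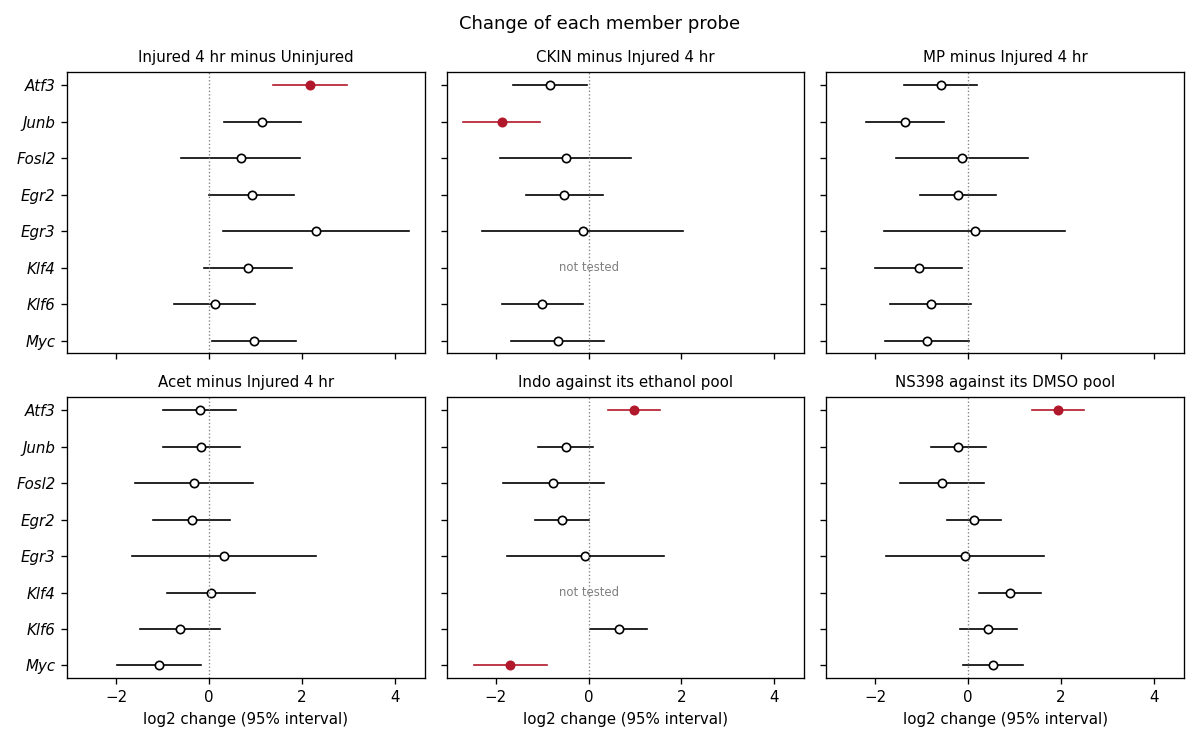
Log2 change (horizontal axis) of each member with its 95% interval in 6 comparisons. Filled red points passed an adjusted p of 0.05: Atf3 in Injured 4 hr, Indo and NS398, Junb in CKIN and Myc in Indo.

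Indo and NS398 were tested against their vehicle pools, each a single control whose own spread is outside the test. Atf3 stood above the pool with both drugs, and Myc stood below it with Indo. Atf3 also read between 0.84 and 0.89 above the median probe in Injured 4 hr, PBS cultures against a PBS pool. Its Indo arrays, between 0.50 and 1.31, overlapped with that range. What part of these values was due to the drugs was not tested. Because the pools differ, the drugs were not tested against each other.

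In Indo, Atf3 read 1.31, 1.10 and 0.50, a change of 0.97 ± 0.27 against the ethanol pool (adjusted p = 0.0178). The call ended without Indo replicate 1 (0.80, adjusted p = 0.161) or replicate 2 (0.91, adjusted p = 0.0902), without centring (0.92, adjusted p = 0.051), with Indo alone in the fit (adjusted p = 0.074) and in corrected ratios (0.58, adjusted p = 0.135). Myc read -2.15 and -1.21 on the measured Indo arrays, a change of -1.68 ± 0.38 (n = 2; adjusted p = 0.00336). It passed in the 7 other settings in which it could be tested, at -1.04 in corrected ratios, and is not tested where replicate 1 or 2 is left out. Klf6 read 1.08, 0.01 and 0.86, with an average of 0.65 ± 0.30 (adjusted p = 0.161). Junb, at -0.63, -0.46 and -0.37, and Egr2, at -0.80, -0.52 and -0.40, read below 0 on every array without passing (adjusted p = 0.292 and 0.201). Of 7 members 2 were called, where 13.3% of 3803 probes were.

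In NS398, Atf3 read 1.61, 2.17 and 2.01, a change of 1.93 ± 0.27 against the DMSO pool (adjusted p = 5.62e-05), and a 3.81-fold higher ratio. It ranked between percentiles 95.7 and 99.3 of the measured probes of each array. The call held in the 9 other settings and with any 1 array left out. Klf4 read 1.04, 1.02 and 0.63 and averaged 0.90 ± 0.32 (adjusted p = 0.0509), on the edge of the threshold. It passed in 5 of 9 other settings, and without centring it averaged 0.0029 (adjusted p = 0.996), where the median of all probes was -0.98. Myc read 0.19, 0.58 and 0.84 (adjusted p = 0.228) and Egr2 0.13, 0.11 and 0.15 (adjusted p = 0.79), all above 0. Junb read -0.67, 0.21 and -0.15 and Fosl2 -0.85, -1.34 and 0.52, on both sides of 0. Without centring Junb averaged -1.10 and Fosl2 -1.45, and both passed. Of 8 members 1 was called, where 22% of 4486 probes were called, 10.7% higher.

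Other early response genes also stood above the DMSO pool in NS398, 9 of 28 probes, with a median of 0.48 against -0.02 over all probes. The 12 of them measured on every array averaged between 0.38 and 0.90 in NS398. In Injured 4 hr, where no drug was given, they averaged between 0.65 and 0.79 against the PBS pool. Zfp36 was at 1.92 ± 0.38, Dusp1 at 1.83 ± 0.26, Nfkbia at 1.79 ± 0.33 and the EGF receptor inhibitor Errfi1 at 1.73 ± 0.28. Of 13 bZIP partner probes 5 were higher, among them both Atf4 probes at 1.40 ± 0.33 and 1.35 ± 0.32 and the stress factor Ddit3 at 1.23 ± 0.26. Atf2 stood at 1.79 ± 0.43 on probe 52G09, which is not the Atf2 probe called after injury. In Injured 4 hr the Atf4 probes averaged 1.63 and 1.24, Ddit3 1.32 and this Atf2 probe -0.02. Egr1 stood at 1.52 ± 0.31, against 1.37 in Injured 4 hr, and was the called probe of 10 of the EGR, KLF and SP list. Of 31 target probes 9 were higher and 2 lower. The chemokine Ccl2 stood at 4.14 ± 0.35 and 3.16 ± 0.28 on its probes. The intermediate filament Vim stood at 3.15 ± 0.43 and Hmox1 at 2.57 ± 0.41. In Injured 4 hr the Ccl2 probes averaged 0.73 and 0.19, Vim 1.79 and Hmox1 1.95. Of marker probes, 3 of 7 of meninges and fibroblasts were higher in NS398, 2 of 3 of blood and granulocytes, 2 of 9 of astrocytes, 2 of 8 of oligodendrocytes, 1 of 8 of microglia and macrophages and 1 of 11 of neurons. Of 5 endothelium probes 1 was higher and 1 lower. Their part in the members' values was not tested. In Indo, Ddit3 was called at 1.09 ± 0.26 and Creb1 at -0.90 ± 0.29 among 9 bZIP probes, and Klf9 at 1.17 ± 0.26 among 7 EGR, KLF and SP probes. Of 25 other early response probes, Dusp1 was called at 1.01 ± 0.26 and the matricellular gene Ccn1 at -1.02 ± 0.27. In Injured 4 hr Ddit3, Klf9 and Dusp1 averaged 1.32, 1.40 and 1.39, and Creb1 and Ccn1 averaged -0.16 and 0.19. Of 30 target probes 4 were lower, where 408 of all 3803 probes were, led by the injury-induced Sprr1a at -2.86 ± 0.48 (n = 2). Sprr1a also averaged -2.27 in CKIN (n = 2), -3.37 in MP (n = 2) and -2.55 in Acet, against the PBS pool. Of marker probes in Indo, 1 of 11 of neurons was higher and 1 of 5 of endothelium was lower, whose part was not tested. The difference between the drugs was not tested.

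**Figure D4:**
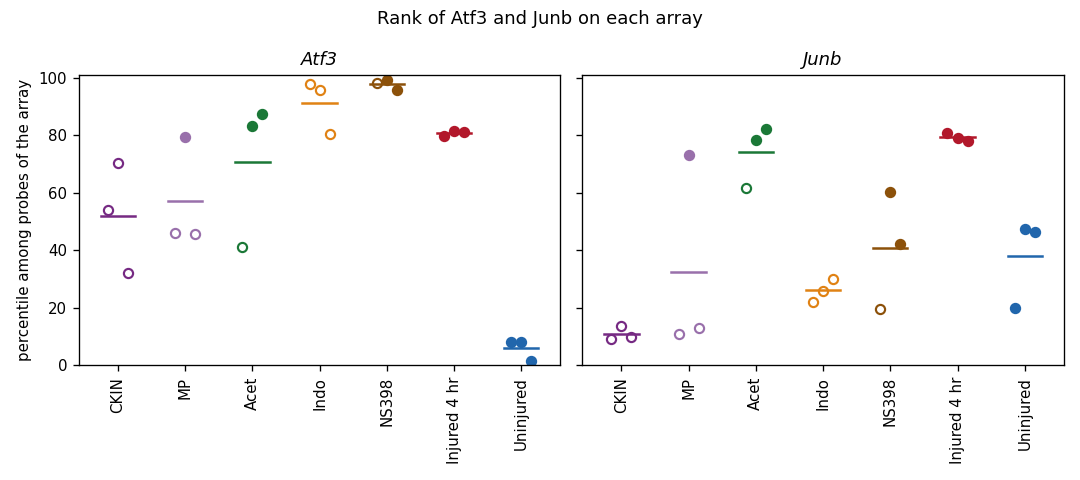
Percentile of Atf3 and Junb among the measured probes of each array (vertical axis) in the 7 groups, with group means as horizontal lines and sparse arrays as open circles. Atf3 ranks between 95.7 and 99.3 in NS398 and between 1.54 and 8.07 in Uninjured, and Junb between 9.03 and 13.7 in CKIN and between 78.1 and 80.9 in Injured 4 hr.

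Ordered by group mean, Atf3 ran from NS398 through Indo, Injured 4 hr, Acet, MP and CKIN to Uninjured. NS398 was apart from Indo and CKIN from Uninjured, while the arrays of the groups between them overlapped with their neighbours. Junb ran from Injured 4 hr and Acet, whose arrays overlapped, to NS398, Uninjured, Indo, MP and CKIN, with Acet apart from NS398 and all later neighbours overlapping. Myc was highest in NS398 and Injured 4 hr and lowest in Indo. The groups use pools of 3 vehicles, and pools of 1 vehicle were assumed to be the same, so these orders describe ratios and are no ranking of expression.

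Over the 7 group means, the most similar probe to Atf3 among 2843 compared was the neutrophil chemokine Cxcl2 (Pearson r = 0.99), and that to Junb was the chemokine Ccl3 (r = 0.936). Fosl2 ran closest to the inducible chaperone Hspa1b (r = 0.962) and Egr2 to Zfp36 (r = 0.986). Among the members, Egr2 ran with Fosl2 (r = 0.926) and Atf3 (r = 0.868), while the highest value for Klf6 was 0.472, with Junb. These values describe 7 points that share arrays, pools and centring.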

How the data were processed

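Per the labels, total RNA of rat spinal cord was hybridised on 21 arrays against pooled culture RNA. The authors deposited log2 ratios, with the sample likely over its pool. The log base was read from recurring exact logarithms of small whole-number ratios, while dyes, background method, any normalization and the rule for blank spots were not given in the sources used here. Blank cells were taken as missing. Gene symbols came from the platform annotation, updated by gene identifier for 4375 of 4423 probes with 1 symbol, while 951 probes had no gene listed and 2 had several. The 52 Gapdh spots were averaged and each array was centred on its median. The members and gene lists were chosen with earlier results of these data known.

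All arrays entered 1 limma model (3.58.1, R 4.3.3) with 1 coefficient per group, moderated and 2-sided, with Benjamini-Hochberg adjustment within each comparison and a threshold of 0.05. A probe was tested with at least 2 of 3 arrays in each compared group. Replicates may be technical, since the labels do not tie them to animals. Each member is described, and of the related lists up to 4 called probes with the largest change were named, with Socs3 and, where it did not pass, Egr1 added after their values were seen. Corrected ratios are residuals from a loess fit (span 0.4) per array against the mean Injured 4 hr ratio, then centred on source plates with at least 20 probes. Other alternatives were no centring, quantile and scale normalization, a stricter filter, fits of the compared groups alone, sparse arrays as a term, the PBS pool as control, a replicate block and leaving out each array. Scripts were tested on simulated data. Same-numbered arrays correlated between -0.18 and 0.51 in their deviations. For MP and Acet this was 0.344 in replicate 1 and 0.513 in replicate 2, against at most 0.023 and -0.019 with other numbers. The labels state no pairing, and the numbers were not taken as pairs in the reported fit.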

Additional observations from a re-analysis of the deposited data

Results flagged for a closer look

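The drug groups below lay on opposite sides of the array median, in ratios to their own pools, on every measured array. The differences were not tested, and the vehicle pools differ, so drug and pool cannot be told apart. Junb averaged 0.63 in Acet and -0.49 in Indo, a difference of 1.12. Egr2 averaged -0.59 in CKIN, -0.44 in Acet and -0.57 in Indo, and 0.13 in NS398, with differences from NS398 of -0.72, -0.57 and -0.70. Klf4 averaged -0.93 in MP and 0.90 in NS398, a difference of -1.82. Myc averaged -0.65 in CKIN (n = 2), -1.05 in Acet and -1.68 in Indo (n = 2), and 0.54 in NS398, with differences from NS398 of -1.19, -1.59 and -2.22.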

How the results depend on the processing

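Of 290 alternatives for single members, 237 kept direction and side of the threshold, 35 passed where the reported fit did not, 7 no longer passed and 11 turned direction. Causes were not tested unless stated. Counts below are probes called, with members called after them. Without centring, where the median of all probes moved by 1.51 after injury, 1.92 in CKIN, 1.93 in MP, 1.85 in Acet, -0.05 in Indo and -0.95 in NS398, calls were 2430 and 8 in Injured 4 hr against Uninjured, 2232 and 3 in CKIN, 3170 and 3 in MP, 3371 and 6 in Acet, 289 and 1 in Indo, 1977 and 3 in NS398, 2 for CKIN against Acet and 0 for MP against Acet. Members that turned there were Atf3 (1.10), Junb (0.0547) and Klf6 (0.93) in CKIN, Junb (0.62) and Klf4 (0.92) in MP and Myc (0.86) in Acet. Atf3 in CKIN also turned with sparse arrays as a term (0.1055) and against the PBS pool (0.0381). Fosl2 after injury turned under scale normalization (-0.0045), and Klf6 turned without Injured 4 hr replicate 2 (-0.0312) or Uninjured replicate 1 (-0.0271), within a range of -0.0312 to 0.3417 with 1 array left out.

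Quantile normalization gave 20 calls after injury, 35 in MP, 899 in Indo, 2 members in NS398, 102 with 1 member for CKIN against Acet and 8 for CKIN against MP. Scale normalization gave 33 after injury, 1228 and 3 in CKIN, 645 and 1 in MP, 507 in Acet, 2 members in NS398, 20 and 1 for CKIN against Acet and 2 for CKIN against MP. Corrected ratios gave 356 and 2 after injury, 27 and 0 in CKIN, 46 in MP, 1 member in Indo, 575 and 2 in NS398, 19 for CKIN against Acet and 2 for MP against Acet. Requiring 3 of 3 arrays, which tests fewer probes, gave 1 member in Indo, 2 in NS398, and 20 and 1 for CKIN against Acet. With the compared groups alone, calls were 1824 and 6 after injury, 24 in MP, 131 in Acet, 290 and 1 in Indo, 125 in NS398, 0 for CKIN against Acet and 0 for MP against Acet. Sparse arrays as a term gave 6 and 0 in CKIN, 33 in MP, 955 in Indo, 8 for MP against Acet and 2 for CKIN against MP. The PBS pool as control gave 1373 and 2 in MP and 1443 and 1 in Acet. Without the sparse arrays, an alternative chosen after seeing the data, calls were 40 in MP, where 1 array remained and the other groups gave the spread, and 3 members in NS398. The replicate block, with numbers not stated to pair the samples, called 2 members after injury, adding Junb (1.15, adjusted p = 0.0347). In MP it called 1, Junb (-1.36, adjusted p = 0.0461).

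With 1 array left out, and a lone remaining array assumed to vary like the other groups, calls lay between 355 and 493 after injury (members 1 to 2), 205 and 548 in CKIN (1 to 2), 3 and 598 in MP (0 to 2), 0 and 122 in Acet, 299 and 380 in Indo (0 to 2), 481 and 962 in NS398, 0 and 28 for CKIN against Acet (0 to 1), 0 and 5 for MP against Acet (0 to 1) and 0 and 8 for CKIN against MP. Missing spots limit Klf4, Fosl2, Egr3 and Myc most.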
